A study of Mus musculus with 2 samples.

Results

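Described here are 10 genes whose products defend cells against oxidants and electrophiles and which are known targets of the transcription factor Nrf2: Gclc, Gclm, Slc7a11, Gsta3, Gsta4, Txnrd1, Srxn1, Nqo1, Aldh3a1 and Hmox1. They were chosen by name, 10 of the 31053 genes in the tables, because earlier results of these data had singled them out, and they were then followed through 4 classes of cells set by marker UMIs. Myh11-high cells held at least 5 UMIs of Myh11, the smooth muscle myosin heavy chain, and Myh11-low cells held at most 1. Endothelial cells held at least 2 UMIs in at least 2 of the 4 genes Pecam1, Cdh5, Cldn5 and Gja4. Cycling cells, taken out before the Myh11 classes, held at least 2 UMIs in at least 2 of 8 division genes. Cells were also divided by whether they held a Gsta3 UMI. For these divisions the values of the 10 genes are a description with no test, because the genes were selected on them.

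Nrf2, encoded by Nfe2l2, is held low in resting cells by Keap1, an adaptor that hands it to the proteasome. When oxidants or electrophiles modify Keap1, Nrf2 accumulates, pairs with a small Maf protein and binds antioxidant response elements near its targets, sites for which Bach1 competes. The targets fall into groups by role: synthesis of glutathione (Gclc, Gclm, Slc7a11), its conjugation to reactive compounds (Gsta3, Gsta4), thioredoxin and peroxiredoxin repair (Txnrd1, Srxn1), reduction of quinones and oxidation of aldehydes (Nqo1, Aldh3a1), and breakdown of haem (Hmox1). In the vessel wall these genes are studied for their part in the response of smooth muscle and endothelium to oxidised lipids and disturbed flow.

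The data were droplet single-cell RNA-seq of primary vascular smooth muscle cells (VSMCs) from the thoracic aorta of wildtype mice on a C57BL6/N background, with the aortae of several animals pooled per preparation. The cells were grown for 5 days in medium with serum and were not treated. Both libraries belonged to this single group and are called replicates 1 and 2, so the comparisons are between cells of the same culture. The filters kept 4866 cells in replicate 1 (median of 22234.5 UMIs and 4673.5 genes per cell) and 6824 in replicate 2 (16310 UMIs and 4059 genes). Of these, 288 and 497 cells were Myh11-high, 2390 and 3711 Myh11-low, 1875 and 2223 cycling and 102 and 141 endothelial. The other 211 and 252 cells held 2 to 4 Myh11 UMIs, belonged to none of the 4 classes and are left out of the comparisons of classes. The summed UMIs of a class in a library ranged from 1751038 to 59745578.

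Levels are given as CPM, the UMIs of a gene scaled to the same total of UMIs in each sum, so that sums can be compared. UMIs of contractile genes were still found in the Myh11-low cells: the 6 contractile markers (Myh11, Acta2, Tagln, Cnn1, Smtn, Lmod1) together made 6136 and 3074 CPM in the depth-matched Myh11-low cells without a Gsta3 UMI. Myh11 itself stood at 5.57 and 4.60 CPM in all Myh11-low cells, where RNA free in the droplets would by itself give an estimated 4.15 and 5.31. The free RNA part of the other markers was not computed. Of the Myh11 limits, 47 and 62 cells lay just under the upper limit, with 4 Myh11 UMIs, and 20 and 43 just on it, with 5. At the lower limit, 287 and 275 cells held 1 Myh11 UMI and 108 and 105 held 2. Cycling cells included 185 and 382 with at least 5 Myh11 UMIs.

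The libraries stood apart in several of the 10 genes, which bears on all that follows. In Myh11-low cells Aldh3a1 was 9.48-fold higher in replicate 2 than in replicate 1, Gsta3 3.66-fold, Gsta4 1.92-fold, Nqo1 1.89-fold, Slc7a11 1.84-fold and Gclm 1.498-fold, whereas Gclc (1.07-fold), Hmox1 (0.962-fold), Txnrd1 (0.899-fold) and Srxn1 (0.765-fold) lay closer together. The tables of replicate 1 name Cell Ranger 3.0.2 and those of replicate 2 name 3.1.0, and the culture, the library and the software version cannot be told apart. RNA free in the droplets made up an estimated 4.69% and 5.76% of the UMIs of a cell. The kept cells shared 9 barcodes between the libraries, where 4.89 would be shared if they were drawn independently. The levels of the 10 genes by class are therefore given for both libraries. Many other genes below are given only by a log2 difference from a fit to both libraries, or by name. Such a value does not show that the libraries agree.

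Promoter sequence was looked at because the 10 genes are grouped by a transcription factor. RefSeq start windows (GRCm38.p6, 250 bases before to 50 after the start) were at hand for 6 of the genes, 8 windows in all, and were searched on both strands for TGACNNNGC, the core letters of the antioxidant response element. The letters occurred in 4 of the 8 windows, belonging to 4 genes, and in 4071 of the 32851 windows of all genes (12.4%). The stretches around the match in Gsta3 (chr1:21240439-21240497, plus strand, match beginning at base -121 from the start), Gclm (chr3:122245398-122245456, plus strand, base -134) and a start of Txnrd1 (chr10:82859089-82859147, plus strand, base -92) are shown as examples, with the matched letters in capitals. Slc7a11 and Nqo1, whose windows lacked the letters, were also higher in the cells with Gsta3 UMIs described below. A link between the letters and these levels was not tested. In Gsta3 the letters read along the gene's strand and in the other two on the opposite strand.
Gsta3: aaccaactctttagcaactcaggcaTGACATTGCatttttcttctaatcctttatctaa
Gclm: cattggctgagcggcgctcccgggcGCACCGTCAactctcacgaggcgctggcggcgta
Txnrd1: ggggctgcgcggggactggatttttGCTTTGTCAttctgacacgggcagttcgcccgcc
The Srxn1 window held the letters 29 bases after the start. The windows of Slc7a11 and Nqo1 and 2 further windows of Txnrd1 did not hold them, which says only that these letters are not in those windows. Gclc, Gsta4, Aldh3a1 and Hmox1 were not analysed here for promoter letters.

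Glutathione is made in 2 steps, and the first is set by glutamate-cysteine ligase, whose catalytic subunit is Gclc (chr9:77754535-77794485) and whose modifier subunit is Gclm (chr3:122245557-122270732). Gclc stood at 18.7 and 27.8 CPM (replicates 1 and 2) in Myh11-high cells, 45.9 and 49.0 in Myh11-low cells, 55.4 and 54.7 in cycling cells and 65.2 and 58.8 in endothelial cells. The libraries of neighbouring classes did not overlap at any step of this order. The share of all genes with no overlap between these classes was not computed, here or for the genes below. Such gaps are therefore a description only. Gclm stood at 81.3 and 187 CPM in Myh11-high, 98.2 and 147 in Myh11-low, 134 and 253 in cycling and 202 and 297 in endothelial cells. The classes of Gclm overlapped, although in each library the endothelial cells were highest and the cycling cells next. Slc7a11 (chr3:49892526-50443614), the light chain of the cystine importer that feeds glutathione synthesis, stood at 5.03 and 32.6 CPM in Myh11-high, 9.53 and 17.5 in Myh11-low, 12.6 and 31.4 in cycling and 99.9 and 109 in endothelial cells. Only the endothelial values of Slc7a11 lay apart from all the others, and the remaining 3 classes overlapped. The left-out cells with 2 to 4 Myh11 UMIs lay between the Myh11 classes in each library for Gclc, at 27.0 and 30.4 CPM. They did not for Gclm, at 76.7 and 250 CPM, or for Slc7a11. Their Slc7a11 was at 3.79 CPM in replicate 1, below both, and at 62.5 in replicate 2, above both.

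Gsta3 (chr1:21240589-21265661) and Gsta4 (chr9:78182774-78209349) encode alpha-class glutathione S-transferases, the latter known for its action on the lipid peroxidation product 4-hydroxynonenal. Gsta3 stood at 1.96 and 20.8 CPM in Myh11-high, 6.42 and 23.5 in Myh11-low, 7.20 and 31.0 in cycling and 3.57 and 15.99 in endothelial cells. Gsta4 stood at 8.52 and 52.5 CPM in Myh11-high, 23.4 and 45.04 in Myh11-low, 21.7 and 46.0 in cycling and 13.8 and 27.4 in endothelial cells. For both genes each class of replicate 2 lay above every class of replicate 1, and neighbouring classes overlapped. Gsta4 in the left-out cells with 2 to 4 Myh11 UMIs stood at 14.5 and 74.2 CPM, in replicate 2 above every class.

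Txnrd1 (chr10:82833951-82897712) is the cytosolic thioredoxin reductase and Srxn1 (chr2:152105516-152111376) the sulfiredoxin that restores overoxidised peroxiredoxins. Txnrd1 stood at 131 and 151 CPM in Myh11-high, 143 and 128 in Myh11-low, 174 and 212 in cycling and 192 and 194 in endothelial cells. Cycling and endothelial cells lay above both Myh11 classes, which overlapped each other. Txnrd1 in the left-out cells with 2 to 4 Myh11 UMIs stood at 123 and 211 CPM, in replicate 2 above the endothelial cells. Srxn1 stood at 30.9 and 54.0 CPM in Myh11-high, 46.7 and 35.7 in Myh11-low, 48.8 and 51.3 in cycling and 62.7 and 60.0 in endothelial cells. Here the endothelial values lay above those of the other classes without overlap, and Myh11-high cells spanned the range of the remaining classes. The left-out cells with 2 to 4 Myh11 UMIs, however, stood at 34.3 and 75.6 CPM, in replicate 2 above the endothelial cells.

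Nqo1 (chr8:107388225-107403206), which reduces quinones with electrons from NADH or NADPH, stood at 11.9 and 39.6 CPM in Myh11-high, 12.6 and 23.8 in Myh11-low, 19.4 and 40.5 in cycling and 56.1 and 67.4 in endothelial cells. The endothelial values did not overlap the rest. Aldh3a1 (chr11:61207537-61218421), an aldehyde dehydrogenase, stood at 0.419 and 25.7 CPM in Myh11-high, 1.49 and 14.2 in Myh11-low, 2.60 and 24.8 in cycling and 0.510 and 10.9 in endothelial cells. Its values in replicate 1 rested on few molecules, 3 UMIs in the Myh11-high and 1 in the endothelial sum, and no class stood apart. Aldh3a1 in the left-out cells with 2 to 4 Myh11 UMIs stood at 0.669 and 41.2 CPM, in replicate 2 above every class. Hmox1 (chr8:75093621-75100589), the inducible haem oxygenase, stood at 166 and 131 CPM in Myh11-high, 226 and 217 in Myh11-low, 143 and 141 in cycling and 191 and 330.1 in endothelial cells. It was the single gene of the 10 that was lower in cycling than in Myh11-low cells in both libraries, and its endothelial values overlapped those of Myh11-low cells.

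**Figure D1:**
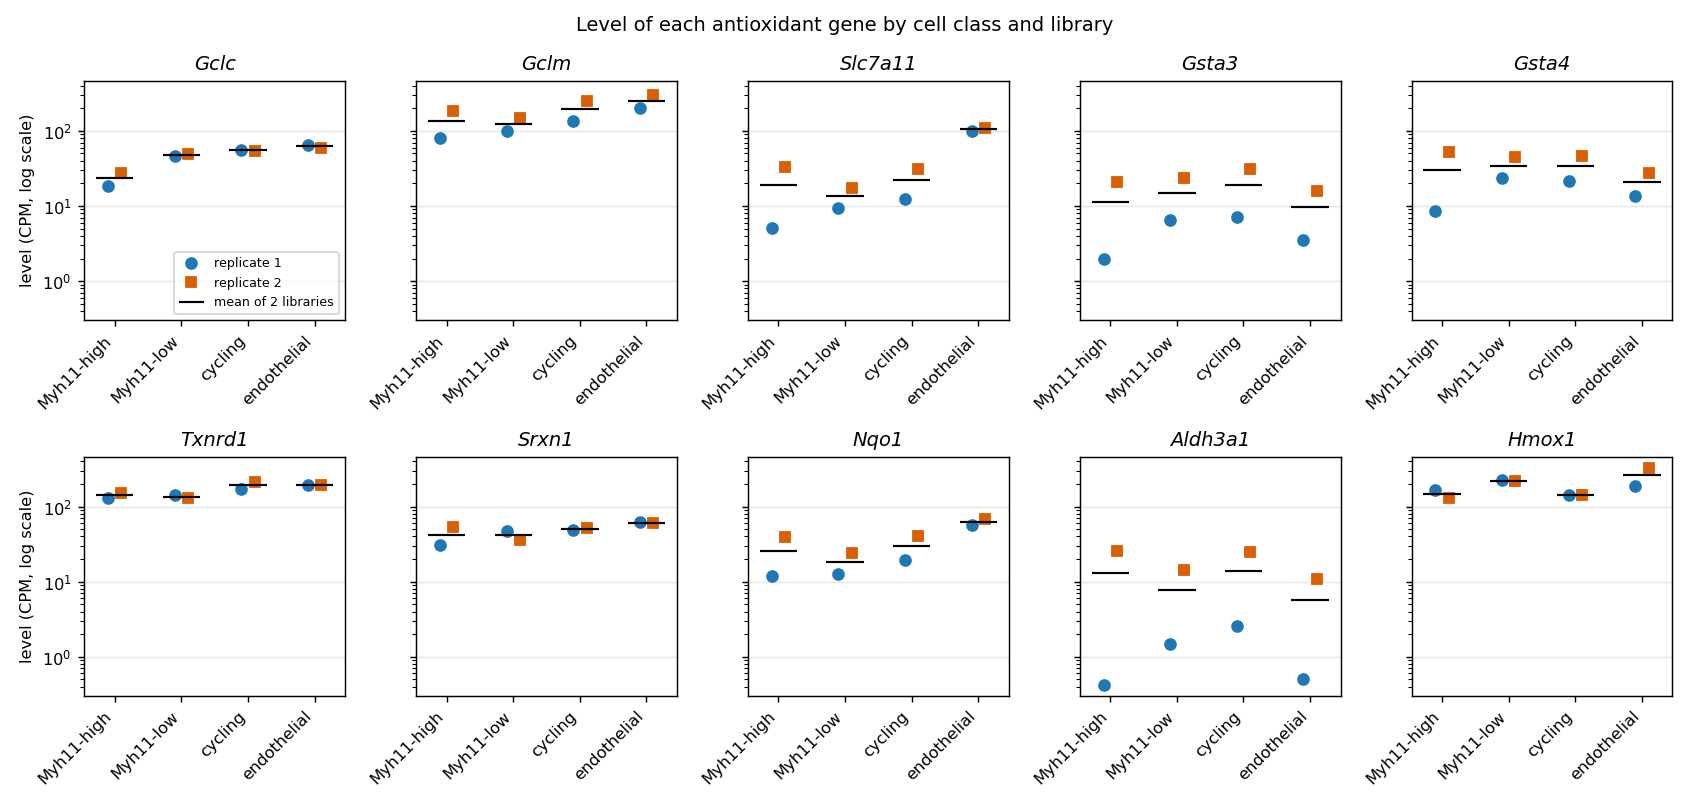
Level of each of the 10 genes (CPM of the summed UMIs, log scale) in Myh11-high, Myh11-low, cycling and endothelial cells. Blue circles are replicate 1, orange squares replicate 2 and bars the mean of the 2 libraries. Slc7a11 is highest in endothelial cells at 99.9 and 109 CPM, and replicate 2 lies above replicate 1 for Gsta3, Gsta4 and Aldh3a1 in every class.

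From Myh11-low to cycling cells, 8 of the 10 genes were higher in both libraries, Hmox1 was lower in both and Gsta4 moved in opposite directions. Of all 14274 genes tested, 39.5% were higher in cycling cells in both libraries. The mean log2 difference, cycling minus Myh11-low, was 0.80 ± 0.01 (SD, n = 2) for Aldh3a1, 0.70 ± 0.10 for Nqo1, 0.62 ± 0.31 for Slc7a11, 0.61 ± 0.24 for Gclm, 0.50 ± 0.31 for Txnrd1 and -0.64 ± 0.02 for Hmox1. The value of Aldh3a1 rested in part on few cells: a single cycling cell of replicate 1 held 67 of the 141 Aldh3a1 UMIs of that sum, and the mean difference was 0.32 without the 5% of cells with the most UMIs. The median over the 10 genes was 0.40, and it was 0.28 in replicate 1 alone and 0.62 in replicate 2 alone. Over all genes the median was -0.03, but that value comes from the edgeR fit, which scales the sums differently from CPM.

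From Myh11-low to Myh11-high cells, 3 of the 10 genes were lower in both libraries, none was higher in both, and 7 moved in opposite directions. Lower levels in both libraries were found for 48.5% of all genes tested. The 3 genes were Gclc at -1.06 ± 0.33 (mean log2 difference ± SD, n = 2), Gsta3 at -0.95 ± 1.09 and Hmox1 at -0.59 ± 0.20. For Gsta3 the SD exceeded the difference, which was -1.52 with the Myh11 classes set by CPM in the cell. The median over the 10 genes was -0.25, but it was 0.29 in replicate 2 alone and -0.76 in replicate 1 alone, so it has no common direction.

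In endothelial cells, set against the mean of the other 3 classes, 7 genes were higher in both libraries and 3 lower in both, where 44.9% of all genes tested were higher in both. Slc7a11 led at a mean log2 difference of 2.81 ± 1.06 (SD, n = 2), followed by Nqo1 at 1.49 ± 0.69, Gclm at 0.81 ± 0.24, Gclc at 0.67 ± 0.26, Hmox1 at 0.59 ± 0.66, Srxn1 at 0.49 ± 0.16 and Txnrd1 at 0.32 ± 0.07. For Hmox1 the SD again exceeded the difference. The genes lower in endothelial cells were Gsta3, at -0.48 ± 0.21, Gsta4, at -0.52 ± 0.39, and Aldh3a1, for which the single UMI of replicate 1 allows no fold. The endothelial sums of Gsta3 were also small, 7 UMIs in 4 cells and 28 UMIs in 13 cells, so its difference is uncertain. These 3 genes lay below the mean of the other classes but not below each of them, since in replicate 1 their endothelial values were above those of Myh11-high cells. The Gsta3 difference was -0.27 without the 5% of cells with the most UMIs and -0.31 with the Myh11 classes set by CPM in the cell.

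The genes differed in how many cells carried them. In Myh11-low cells Txnrd1 was detected in 84.5% and 73.2% of cells, Hmox1 in 81.8% and 71.2% and Gclm in 73.4% and 72.3%. Gclc was detected in 41.8% and 37.9%, Srxn1 in 49.5% and 34.0%, Nqo1 in 16.2% and 21.2%, Gsta4 in 16.2% and 18.7%, and Slc7a11 in 11.6% and 7.95%. Gsta3 was detected in 4.10% (95% exact binomial interval 3.34 to 4.97) and 9.94% (8.999 to 10.95), and Aldh3a1 in 2.18% (1.63 to 2.84) and 8.003% (7.15 to 8.92). Median depth was 19672.5 and 14403 UMIs per cell, and the intervals cover counting error only. The free RNA would by itself give a UMI of Gsta3 to 0.706% and 2.78% of these cells and of Aldh3a1 to 0.105% and 1.92%, so the shares of both genes lay above that background in each library. Free RNA would give Hmox1 to 17.0% and 15.8% of cells and Gclm to 9.40% and 14.8%. Over the 10 genes the median share was 29.3%, and 8.10% when every cell was thinned to 3000 UMIs.

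UMIs of the low-share genes sat in few cells. Had every Myh11-low cell carried Gsta3 at the same CPM, 12.7% and 30.3% of cells would hold a UMI, in place of 4.10% and 9.94%, and for Gsta4 the shares would be 37.7% and 48.6%, in place of 16.2% and 18.7%. The 5% of Myh11-low cells with the most UMIs of the gene held 68.0% and 89.6% of all Slc7a11 UMIs and 73.6% and 76.7% of those of Gsta4, and in replicate 2 86.1% of those of Gsta3 and 86.9% of those of Aldh3a1. In replicate 1 fewer than 5% of cells held a UMI of Gsta3 or Aldh3a1, so the measure says nothing there. For Nqo1 the share was 58.7% and 53.1%. It was 21.0% and 29.7% for Txnrd1, 26.0% and 35.9% for Gclm and 25.7% and 43.7% for Hmox1, which were detected in most cells. A gene with fewer UMIs gets a higher share from its low level alone. No expectation at like level was computed, so the share does not rank the genes by concentration. In replicate 2, 70.6% of the Hmox1 UMIs sat in the 18.5% of cells with 5 or more. A single cell reached 168 UMIs of Gsta4 in replicate 1 and 41 of Gsta3 in replicate 2. These cut-offs were chosen after the values had been seen.

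Cells with a Gsta3 UMI were next set against cells without. To keep depth alike, each of the 98 and 369 Myh11-low cells with a Gsta3 UMI was paired with a cell of the same library whose total UMIs differed by at most 5%, which left medians of 24551 against 24550.5 UMIs in replicate 1 and 16989 against 16992 in replicate 2. All 9 other genes were higher in the cells with Gsta3 in both libraries, as were 24.5% of the 10966 genes tested. Gsta4 stood at 215 CPM with Gsta3 and 9.38 without in replicate 1, and at 258 and 19.4 in replicate 2, a mean of 17.5-fold. Its mean log2 difference was the highest of the 9 genes, although in replicate 2 that of Slc7a11 was higher (4.25 against 3.73). Slc7a11 stood at 36.4 against 7.13 CPM and at 97.2 against 5.09 (9.87-fold), and Nqo1 at 88.5 against 8.25 and at 90.0 against 19.1 (7.11-fold). Aldh3a1 stood at 9.75 CPM with Gsta3 and 0.375 without in replicate 1, the latter from 1 UMI, and at 76.5 against 6.64 in replicate 2. No fold is given for Aldh3a1 in replicate 1, because 1 UMI does not fix it.

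The genes detected in more cells differed less. Gclm stood at 252 against 94.5 CPM in replicate 1 and at 422 against 119 in replicate 2, a mean log2 difference of 1.62 ± 0.29 (SD, n = 2). Srxn1 stood at 100.1 against 38.3 and at 90.4 against 29.3 CPM (1.51 ± 0.17 on the log2 scale), and Hmox1 at 317 against 217 and at 544 against 171 (1.11 ± 0.79). The Hmox1 difference was thus larger in replicate 2. Txnrd1 stood at 252 against 142 and at 283 against 114 CPM (1.07 ± 0.34), and Gclc at 90.0 against 49.5 and at 75.6 against 38.6 (0.92 ± 0.08). For each of the 9 genes, with the 1 UMI of Aldh3a1 raised to 3, the mean log2 difference exceeded the SD between the libraries. That describes 2 values per gene and is no test, and the share over all genes was not computed. The median of the 9 was 1.62, and 1.42 in replicate 1 and 1.83 in replicate 2 alone.

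**Figure D2:**
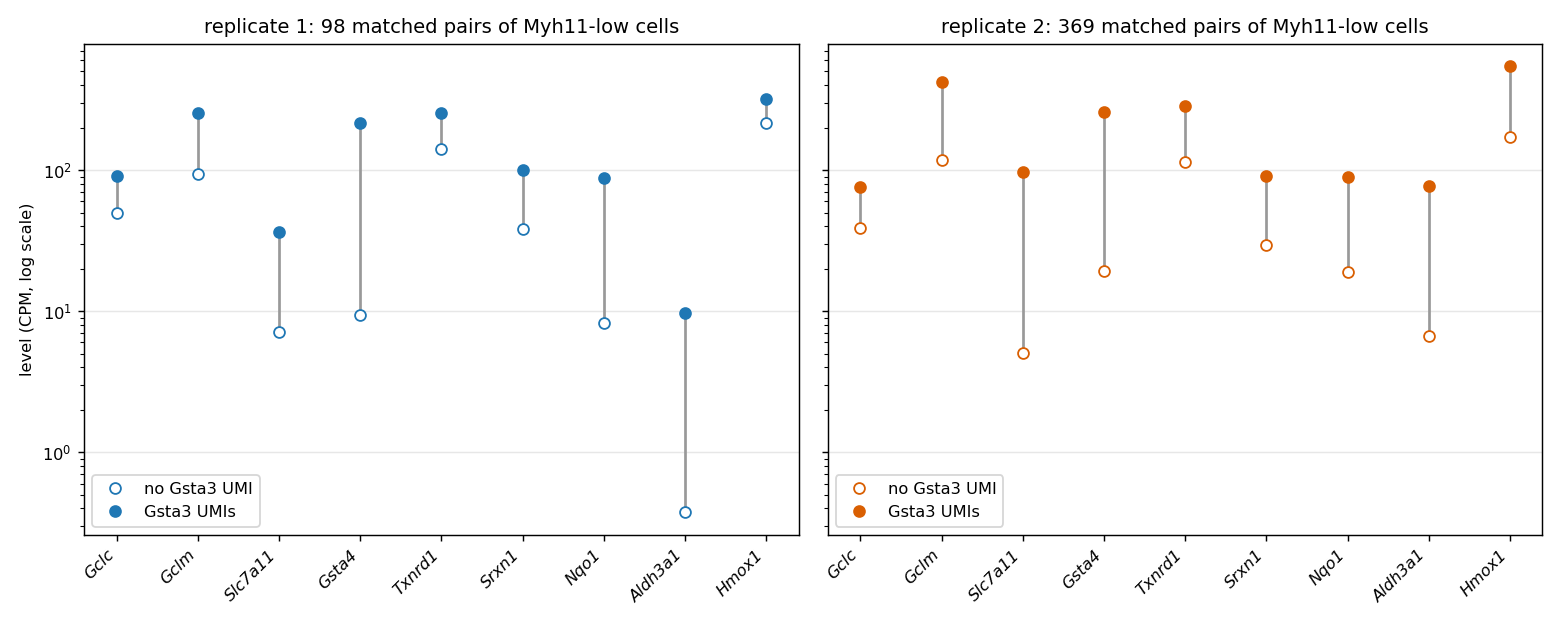
Level of the 9 other genes (CPM, log scale) in depth-matched Myh11-low cells with Gsta3 UMIs (filled) and without (open), for replicate 1 (98 pairs) and replicate 2 (369 pairs). Grey lines join both values of a gene, and all 9 filled points lie above their open points in each library.

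The genes also met in the same cells. Of the 9 other genes, a Myh11-low cell with Gsta3 carried on average 5.55 in replicate 1 and 5.44 in replicate 2, and its matched partner 4.06 and 3.58. At least 7 of the 9 were found in 35.7% and 32.2% of the cells with Gsta3 and in 5.10% and 3.79% of those without. The limit of 7 was set after the values had been seen.

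Levels were higher in cells with more Gsta3 UMIs for most genes. Gsta4 stood at 12.95 and 16.4 CPM in Myh11-low cells with no Gsta3 UMI, 37.9 and 63.2 with 1, 195 and 167 with 2 to 4, and 678 and 618 with 5 or more. Gclc moved from 43.5 and 45.5 CPM at 0 over 60.3 and 43.0 at 1 and 88.4 and 84.6 at 2 to 4 to 166 and 113 at 5 or more. Hmox1 in replicate 1 stood at 221, 271, 229 and 534 CPM over the same steps, and in replicate 2 at 173, 323, 473 and 922. The steps were therefore not all upward, with Gclc lower at 1 UMI than at 0 in replicate 2 and Hmox1 lower at 2 to 4 UMIs than at 1 in replicate 1. The highest step rested on 16 cells in replicate 1 and 93 in replicate 2. These cells held more UMIs in all, a median of 30932.5 and 20909 where cells at 0 held 19557.5 and 14218, and CPM does not remove a depth difference in the choice of cells, whose part was not tested. The steps were chosen after the values had been seen.

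**Figure D3:**
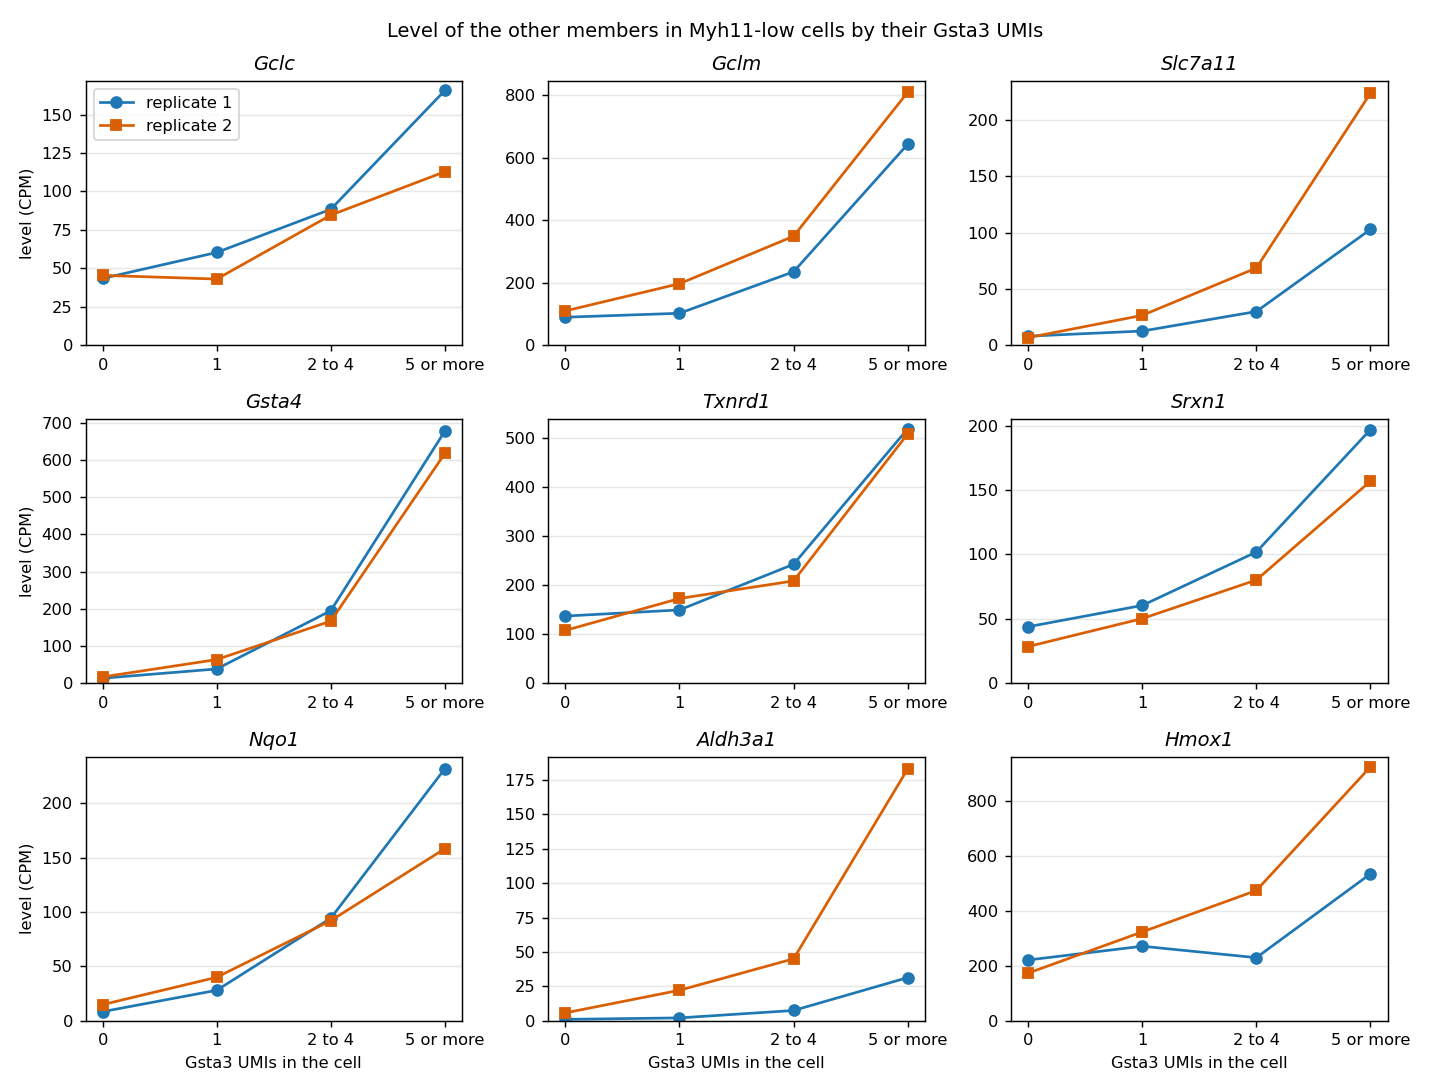
Level (CPM, linear axes from 0) of the 9 other genes in Myh11-low cells with 0, 1, 2 to 4 and 5 or more Gsta3 UMIs, blue for replicate 1 and orange for replicate 2. In each of the 9 genes and both libraries the highest point is at 5 or more UMIs, as for Gsta4 at 678 and 618 CPM.

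Cells with Gsta3 showed the same direction outside the Myh11-low class. Among cycling cells (99 and 300 pairs) Gsta4 stood at 204 against 4.30 CPM and at 229.8 against 12.01, Nqo1 at 99.8 against 11.2 and at 139 against 19.97, and Slc7a11 at 37.7 against 9.46 and at 141 against 8.09. Hmox1 in cycling cells stood at 167 against 145 CPM in replicate 1 and at 364 against 94.0 in replicate 2. Among Myh11-high cells of replicate 2 (42 pairs) Gsta4 stood at 368 against 23.3 CPM, Txnrd1 at 658 against 97.9 and Slc7a11 at 242 against 19.4. Replicate 1 had 8 such pairs and the endothelial cells 3 and 12, too few for more than a direction, and there Slc7a11 in Myh11-high cells and Srxn1 and Nqo1 in endothelial cells of replicate 1 were lower in the cells with Gsta3, and Aldh3a1 was at 0 in both endothelial sets of replicate 1.

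Across single Myh11-low cells, Pearson's r of log counts over the 45 pairs of the 10 genes had a median of 0.13 in replicate 1 (2390 cells) and 0.27 in replicate 2 (3711 cells), with a range from -0.01 to 0.52 and from 0.05 to 0.62. The cells of a library share its depth and free RNA, and the counts are sparse, so these values are a description. Gsta3 and Gsta4 had the highest r of all pairs (0.52 and 0.62), and Gsta3 with Nqo1 came next in replicate 1 (0.45, and 0.47 in replicate 2). Of 5551 genes with at least 20 CPM, the pattern of Gsta3 over these cells was most like that of Gsta4, then Fth1 (r of 0.35 and 0.43), Gstm1 (0.28 and 0.37), Prdx1 (0.27 and 0.38) and Ftl1 (0.26 and 0.37). Nqo1 was below that level and was not ranked.

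**Figure D4:**
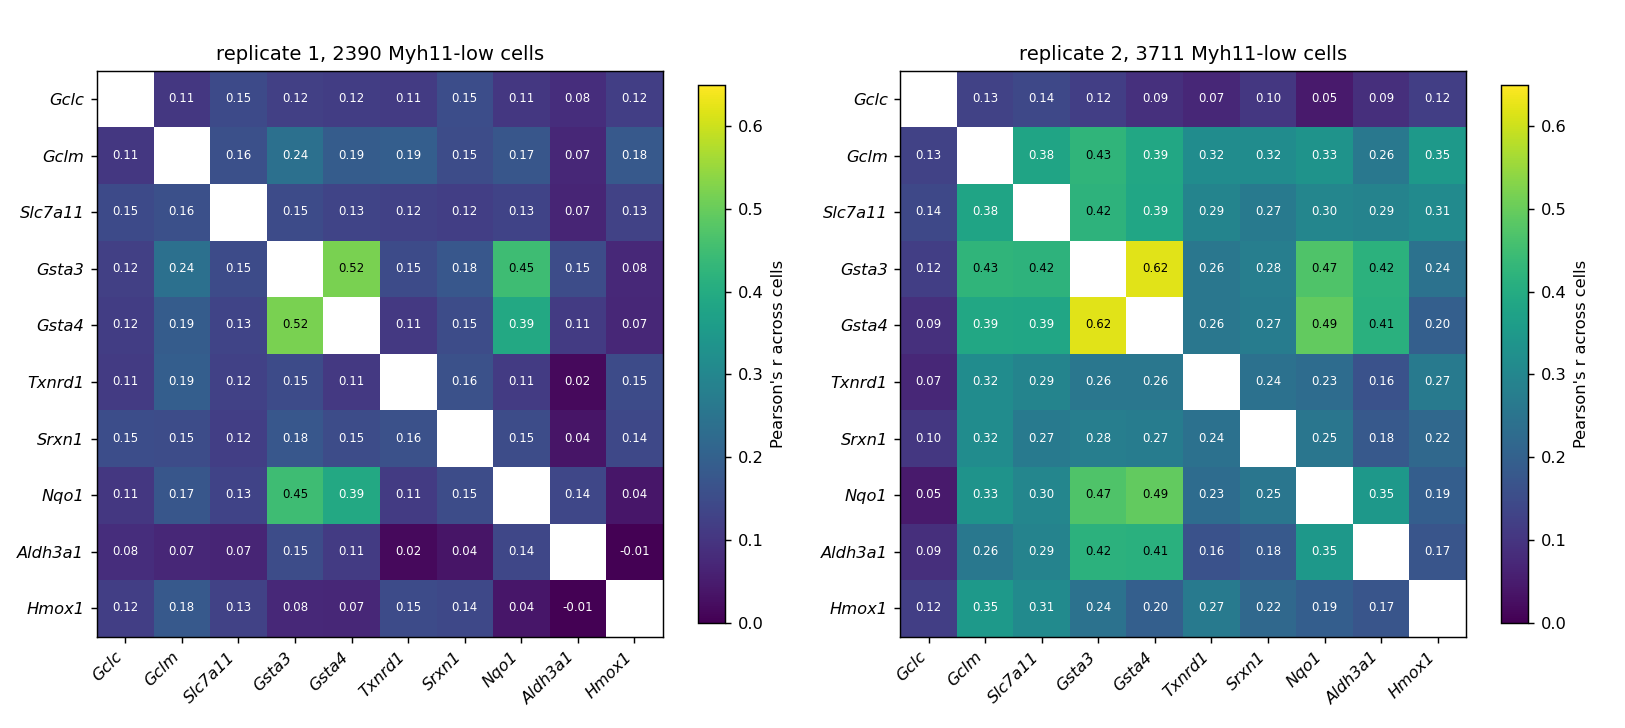
Pearson's r of log counts between the 10 genes across single Myh11-low cells of replicate 1 (left) and replicate 2 (right), from dark (0) to yellow (0.65). Gsta3 with Gsta4 is the brightest pair in both panels, at 0.52 and 0.62, and the median pair lies at 0.13 and 0.27.

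Other genes of the pathway were read from 9 lists holding 86 genes, 84 of which could be tested between cells with and without Gsta3. In edgeR's quasi-likelihood test of the 4 sums no gene of the table passed an adjusted p of 0.05 (0.0% of 10966), while 141 genes had an unadjusted p under 0.05 and DESeq2 called 29. As the cells with and without Gsta3 came from the same cultures, the fit with the library as a block is given beside it. That fit called 326 genes (2.97%), 196 of them higher. On the lists were 28 of the called genes, all 28 higher in the cells with Gsta3 and none lower. The lists were chosen with earlier results of these data known, and the 28 include Gsta1 and Gsta2, treated below. The p-values rest on the spread between these 4 sums, estimated with information shared between genes. A small p-value therefore does not show that a gene behaved alike in both libraries. The haem and iron genes had the highest median of the lists (log2 difference 0.98, beside 0.00 over all genes), with 4 of 6 higher: Blvrb, a biliverdin reductase, by 1.41, Fth1 and Ftl1, the ferritin chains, by 1.15 and 0.78, and the haem transporter Slc48a1 by 1.06. Of 19 glutathione genes 8 were higher, among them Gstm1 at 379.9 against 79.9 CPM and 422 against 125 (adjusted p = 2.69e-30) and Mgst1 at 293 against 120.02 and 419 against 235. Gsta1 and Gsta2, and the related Gm3776, were higher too, but they resemble each other and Gsta3 closely and their reads may be shared, so they remain uncertain.

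These enzymes draw on NADPH, and the list for it holds suppliers and further genes of the pentose phosphate pathway. In the same blocked fit 4 of its 6 genes rose. They were the suppliers Pgd, by 1.15 on the log2 scale, and the malic enzyme Me1, by 0.34, and from that pathway Taldo1, by 1.05, and Tkt, by 0.44. The suppliers G6pdx and Idh1 were not called. Of 13 thioredoxin and peroxide genes 5 rose, led by the peroxiredoxins Prdx6 (308 against 149 CPM and 437 against 165) and Prdx1 by 1.27 and 1.08, with catalase (Cat) by 0.77. Of 13 quinone, carbonyl and aldehyde genes 4 rose, among them the carbonyl reductase Cbr3 by 1.06, and of 4 transporters Abcc4 and Abcc1, which export conjugates, rose by 1.498 and 0.69. Among 10 regulators of Nrf2 only Sqstm1, which binds Keap1, passed (0.61, adjusted p = 1.91e-07). Nfe2l2 itself stood at 91.5 against 84.8 CPM and at 116 against 95.1 (adjusted p = 0.24 in the blocked edgeR fit), Keap1 had an adjusted p of 0.785 and Bach1 of 0.998 in that fit. None of 5 aryl hydrocarbon receptor genes and none of 8 genes of the amino acid and stress response, to which Slc7a11 also belongs, such as Trib3 and Chac1, was called.

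Over all genes with at least 20 CPM the blocked fit called 142 higher and 113 lower in the cells with Gsta3. Of the 10 with the largest rise, 5 were Gsta3, Gsta4, Slc7a11, Aldh3a1 and Nqo1, whose place follows from their choice. They are part of the 142, and their calls are no test. The others were Akr1c18, an aldo-keto reductase (86.6 against 1.13 CPM and 43.2 against 12.4), Crct1 (63.0 against 2.63 and 17.2 against 9.47), Gstm1, Uchl1, a ubiquitin hydrolase (126 against 27.4 and 92.8 against 32.7), and Cxcl14. Cxcl14 rested on replicate 1 alone, with 79.5 against 11.6 CPM there and 2.40 against 3.11 in replicate 2. Its adjusted p in the blocked edgeR fit was 1.35e-07 all the same. The 10 with the largest fall were Lmo7 (24.0 against 54.8 CPM and 22.3 against 48.8), Kctd12, the myosin kinase Mylk (78.0 against 123 and 18.8 against 35.9), Eno3, Rspo2, Tgfb3, Tnc, Igfbp5, Ctla2a and the BMP antagonist Grem1, with log2 differences from -1.13 to -0.71. Ctla2a fell in replicate 2 only, with 76.9 against 74.6 CPM in replicate 1.

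Marker genes of other cell types moved with this division as well. The 7 macrophage markers summed to 15.8 CPM with Gsta3 and 13.1 without in replicate 1, and to 71.0 against 10.5 in replicate 2, where Lyz2 alone stood at 54.2 against 4.24. In the cells with Gsta3 of replicate 1, Ptprc, Adgre1, C1qa and C1qb were at 0, and in replicate 2 C1qa was. The 5 adventitial fibroblast markers summed to 860 against 405 CPM and 599 against 455, the 5 foam-like markers to 1124 against 778 and 1643 against 1334, and the 6 contractile markers to 4132 against 6136 and 2453 against 3074. The 5 modulated markers summed to 4642 against 4935 and 4979 against 5682, the 4 Schwann markers to 43.5 against 20.6 and 35.6 against 34.5, and the 8 cycling markers to 57.0 against 54.8 and 58.6 against 55.0. Endothelial markers stayed at or below 4.50 CPM, mesothelial at or below 6.75 and adipocyte at or below 2.26 in every set. The part of these markers in the differences above was not tested. Lyz2 and Gm3776 were named after their values had been seen.

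Between the classes, the same 86 listed genes were tested on 8 sums, 4 classes in each library. In Myh11-high against Myh11-low cells edgeR called 429 genes (3.01% of 14274), of the listed genes 1 higher and 4 lower. Lower were G6pdx (29.2 and 34.1 against 61.0 and 74.4 CPM) and Idh1, both suppliers of NADPH, Aldh1a1 and Cyp1b1, at log2 differences of -1.01, -0.93, -1.11 and -1.12, and higher was the stress gene Nupr1 (822 and 841 against 125 and 90.7). With the library as a block 3145 genes were called (22.0%), and 13 listed genes were higher and 22 lower. Nfe2l2 was among the latter, at 55.5 and 62.0 CPM in Myh11-high against 80.3 and 100.3 in Myh11-low cells (log2 difference -0.53, adjusted p = 0.00427 with the block and 0.186 without it in edgeR). The genes lower with the block included Mgst1, Gstt1 and Gpx3 of the glutathione genes (log2 differences of -1.29, -0.86 and -2.19), while Gsr, the glutathione reductase, was higher by 0.69.

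In cycling against Myh11-low cells edgeR called 699 genes (4.9%), and Nupr1 was the single listed gene among them (log2 difference 1.03, adjusted p = 0.0247). With the block 2945 genes were called (20.6%), 3 listed genes higher and 18 lower. Gsr was again higher, by 0.63, and Mgst1 and Idh1 were lower, at -0.70 and -0.74. The medians of the 9 lists lay between -0.32 and 0.04 without the block.

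In endothelial cells edgeR called 3441 genes (24.1%), with 10 listed genes higher and 20 lower, and with the block 5275 (37.0%), with 19 and 30. Nfe2l2 was higher, at 113 and 148 CPM against a mean of 70.5 and 84.9 in the other classes (log2 difference 0.55, adjusted p = 0.0366), as was Sqstm1 (0.50, adjusted p = 0.0192). Adh7 (75.4 and 160.5 against 1.59 and 7.04 CPM) and Abcc4 rose most within the quinone and transporter lists, by 4.67 and 2.32, and Trib3, a target of the amino acid response, rose by 2.15. Taldo1 rose by 0.95 and Sod1, the copper-zinc superoxide dismutase, by 1.00. Lower were Aldh1a1 (-2.24), the peroxidase Gpx8 (-2.10), the transferases Gstt1 (-1.69) and Gstm2 (-1.62), Ptgr1 (-1.67) and G6pdx (-1.30). Within the glutathione list 1 gene was higher and 6 were lower without the block, and 6 were higher and 8 lower with it.

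Pdgfra, a receptor that marks modulated, fibroblast-like cells, is not among the divisions named in the choice of the 10 genes. They were therefore tested between Myh11-low cells with and without a Pdgfra UMI (521 and 1102 pairs). The test was still chosen with earlier results of these data known. The pairs took up 521 of the 1768 and 1102 of the 2449 cells with Pdgfra. The cells with Pdgfra were slightly deeper within the pairing limit, with medians of 17484 against 16621 and 13605.5 against 12949 UMIs. In edgeR without the block none of the 10 genes was called, nor any other gene (0.0% of 12263), while 132 genes had an unadjusted p under 0.05 and DESeq2 called 18. With the block 889 genes were called (7.25%), 432 of them lower (3.52%), and 5 of the 10 genes were lower and none higher. Aldh3a1 stood at 1.14 CPM with Pdgfra against 1.96 without in replicate 1 and at 10.2 against 20.9 in replicate 2 (log2 difference -1.04, SE 0.16, adjusted p = 3.58e-09). Slc7a11 stood at 7.39 against 10.8 and at 13.8 against 20.6 CPM (-0.59, adjusted p = 0.000121), and Nqo1 at 8.01 against 15.2 and at 23.0 against 26.3 (-0.41, adjusted p = 0.00352). In both libraries these 3 genes were lower in the cells with Pdgfra, as were Gsta4 and Gclm and, without being called, Gsta3 and Txnrd1. Gsta4 stood at 16.8 against 17.9 and at 38.8 against 48.9 CPM (-0.30, adjusted p = 0.0103), and Gclm at 88.5 against 96.4 and at 133 against 151 (-0.19, adjusted p = 0.0106). These last differences were small beside those between the libraries. When all cells were used without pairing, the differences without the block were -0.06 for Gsta4, -0.05 for Gclm and -0.29 for Slc7a11, where the pairs gave -0.29, -0.19 and -0.58, and with at least 2 Pdgfra UMIs that of Gsta4 was -0.03.

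The other 5 genes did not pass with the block. Gsta3 stood at 1.87 against 6.33 CPM and at 22.4 against 23.4 (adjusted p = 0.159 in the blocked edgeR fit), and Gclc, the only gene of the 10 above 0, at 47.5 against 45.9 and at 50.2 against 44.9 (log2 difference 0.09, SE 0.07). The median log2 difference of the 10 genes was -0.24, beside 0.00 over all genes. Of the 84 listed genes tested, 9 were higher and 8 lower with the block and none without it. Gpx3 rose by 0.68, and Nupr1 and Taldo1 were at -0.67 and -0.32.

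Gpnmb, a glycoprotein of foam-cell-like cells, is likewise not among the named divisions, and its test was chosen with the same knowledge. Gpnmb was itself higher in the cells with Gsta3, at 64.1 against 33.8 CPM and 231 against 213. The log2 difference was 0.35 (adjusted p = 0.033 in the blocked edgeR fit). A Gsta3 difference by Gpnmb is therefore not separate from the division by Gsta3. Between Myh11-low cells with and without a Gpnmb UMI (823 and 655 pairs, medians of 21847 against 21725 and 12104 against 11508 UMIs) edgeR called no gene without the block (0.0% of 12403), with 73 genes at an unadjusted p under 0.05 and 7 called by DESeq2. The pairs took up 823 of the 937 and 655 of the 2992 cells with Gpnmb. In replicate 2 they left out deeper cells, as all cells with Gpnmb had a median of 15188.5 UMIs there. With the block 209 genes were called (1.69%), 140 of them higher (1.13%). Gsta3 was called, at 8.65 CPM with Gpnmb against 2.44 without in replicate 1 and at 17.9 against 12.998 in replicate 2 (log2 difference 1.04, SE 0.20, adjusted p = 0.00281). It was higher in both libraries, and the other 9 genes did not pass. Gsta4 moved in opposite directions, at 25.4 against 15.2 CPM in replicate 1 and 34.2 against 43.1 in replicate 2 (adjusted p = 0.701 in the blocked edgeR fit). The median of the 10 genes was 0.03, beside 0.01 over all genes, and of the listed genes Gstm1 alone was called, higher by 0.33.

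**Figure D5:**
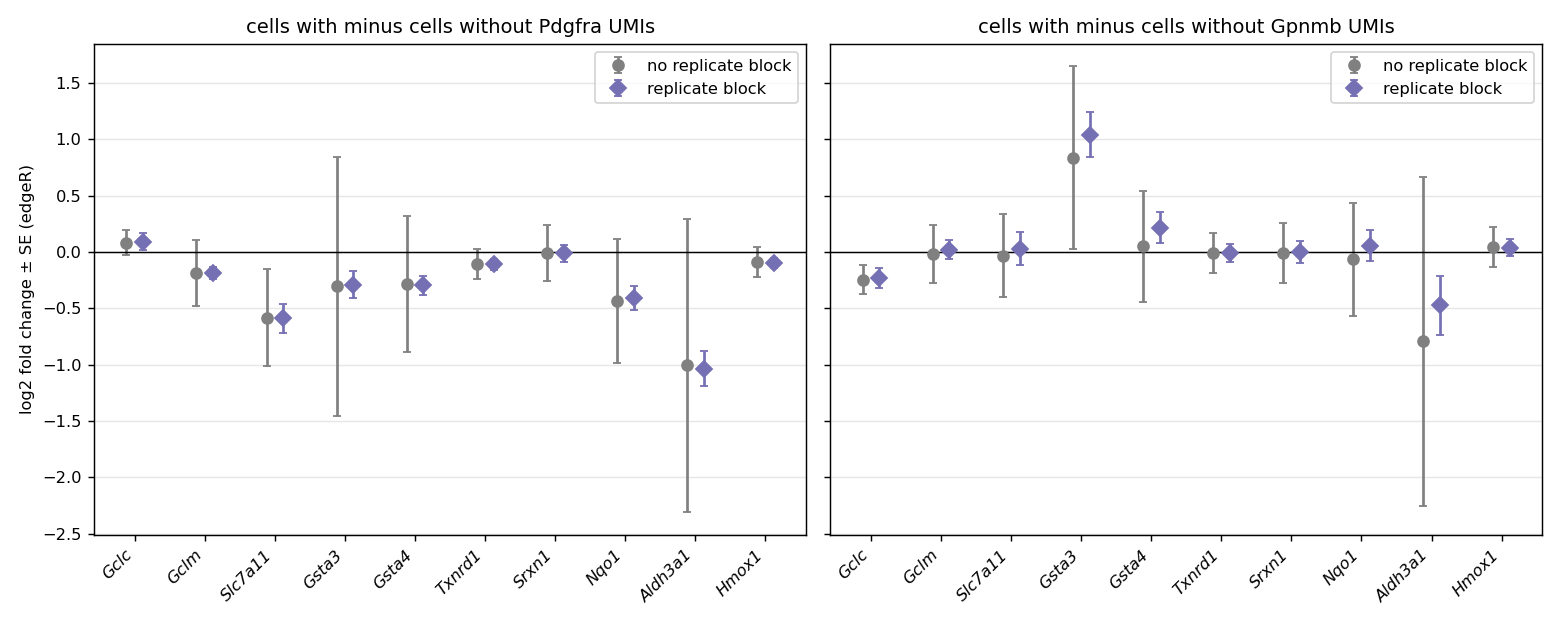
Log2 difference of each of the 10 genes between Myh11-low cells with and without Pdgfra UMIs (left) and with and without Gpnmb UMIs (right). Bars are 1 SE, derived from the log2 difference and the F statistic of edgeR's test. Grey circles are the fit without and purple diamonds the fit with the library as a block, and Aldh3a1 is lowest on the left at -1.04 with the block and Gsta3 highest on the right at 1.04.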

How the data were processed

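The deposited files hold UMI counts per gene and barcode that the authors made with Cell Ranger against mm10, per the submitters' notes and file headers, with no further normalization. The study's own limits were applied to barcodes: a minimum of 300 genes and 3000 UMIs, and a mitochondrial share below 20%. No doublet caller was run. An alternative left out the 5% of cells with the most UMIs. UMIs were summed per library and class and divided by the total (CPM). The sums were tested with edgeR 4.0.16 (filterByExpr, TMM, glmQLFit, glmQLFTest, R 4.3.3) with Benjamini-Hochberg adjustment over all genes tested at a threshold of 0.05, and with DESeq2 1.42.0 as an alternative. An SE beside an edgeR value is the absolute log2 difference divided by the square root of the test's F statistic. For 2 sums against 2, with the pairing set aside, an exact permutation test of both directions cannot go below p = 0.33.

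Sums of the same number come from the same culture and library, which pairs them. Deviations from the class means correlated between sums of a library at 0.242 to 0.774 for classes and 0.637 to 0.787 for the matched sets. On simulated data the share of false calls exceeded the threshold when gene-wise dispersions were simulated and lay near it with trended dispersions, so calls near the threshold are less certain. The simulated sums had no deviation shared within a library. They therefore do not give the share of false calls of either fit under the pairing of these data.

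Members, lists and tests were chosen with earlier results of these data known. Genes were named by a rule: all 10 members, up to 4 genes of a list past the threshold per direction, and the 10 with the largest change in each direction at 20 CPM or more in the Gsta3 comparison. Free RNA was taken from barcodes with at most 100 UMIs, and its share in cells from the endothelial markers in other cells. Gene coordinates are from the GRCm38 annotation.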

Additional observations from a re-analysis of the deposited data

How the results depend on the processing

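With 2 libraries, leaving out either leaves no spread to test, so those values carry no p. The count of genes called depended on the fit, and the cause was not tested. With DESeq2 it was 1303 for Myh11-high, 1177 for cycling, 29 for Gsta3, 18 for Pdgfra and 7 for Gpnmb cells. With no filter on low counts it was 799 for Myh11-high, 87 for Gsta3, 12 for Pdgfra and 6 for Gpnmb cells. With the replicate block, which follows the pairing of sums by culture, it was 3145, 2945, 5275, 326, 889 and 209 for the Myh11-high, cycling, endothelial, Gsta3, Pdgfra and Gpnmb comparisons. With at least 2 UMIs of the gene it was 5 for Gsta3 and 1 for Pdgfra. Upper quartile normalization changed the endothelial calls from 1723 higher and 1718 lower to 1901 and 1486.

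The median over the 10 genes of the endothelial difference was 0.61, not 0.54, without the 5% of cells with the most UMIs, and 0.43 to 0.49 with either library left out. That of the Gsta3 difference was 2.21 with at least 2 Gsta3 UMIs and 1.42 to 1.83 over the libraries, a check chosen after seeing the data. The median of Myh11-high minus Myh11-low was -0.76 to 0.29 over the libraries. The median share of cells fell from 29.3% to 8.10% at 3000 UMIs.

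Some single genes changed sign from a value near 0. Without matching, the Pdgfra difference became 0.004 for Srxn1 and 0.043 for Hmox1, and the Gpnmb difference 0.099 for Gclm, 0.284 for Slc7a11, 0.093 for Txnrd1 and 0.003 for Srxn1. With the replicate block the Gpnmb difference was 0.021 for Gclm, 0.029 for Slc7a11, 0.003 for Srxn1 and 0.056 for Nqo1. It was -0.057 for Gsta4 without the 5% of cells with the most UMIs and 0.02 for Srxn1 with at least 2 UMIs. Of the class differences, 38 of 40 values kept their sign for Myh11-high cells (the exceptions being Slc7a11 and Srxn1) and all 40 for cycling and for endothelial cells, under changes of depth limit, class limits, deep cells and free RNA. These changes kept both libraries and do not show that the libraries share a sign. Between the libraries, 7 of the 10 genes had opposite signs for Myh11-high cells, as did Gsta4 for cycling cells.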
